A study of Mus musculus with 8 samples.

Results

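The DEAD and DEAH box RNA helicases were followed in mouse bone marrow-derived macrophages during their first 3 days with RANKL, the cytokine that turns macrophage precursors into bone-resorbing osteoclasts. The genes were taken by name: every gene whose symbol on the array begins with Ddx or Dhx and a number, except the RIG-I family genes Ddx58 and Dhx58, provided that a probe of the gene was detected (detection p under 0.05 on 2 or more of the 8 arrays). The probe with the highest mean signal stood for its gene. Of 40 such genes on the array, 32 were detected, 20 with a Ddx symbol and 12 with a Dhx symbol, among 8663 detected genes in all. The cells came from femurs and tibias of C57BL/6 mice aged 6 to 8 weeks. After 16 h of marrow culture with 5 ng/ml M-CSF, the cells that had not attached were grown for 3 days at 30 ng/ml M-CSF, and those that then adhered were used. They received M-CSF at 30 ng/ml with RANKL at 50 ng/ml for 1, 2 or 3 days, and day 0 is the state before RANKL. Each of the 4 days had 2 single-colour bead arrays. Cells given M-CSF without RANKL for 1 to 3 days were not analysed here, so RANKL and time in culture cannot be told apart. Whether the 2 arrays of a day stand for separate cultures is not stated in the labels, and p-values therefore reflect the spread of these samples alone, which could be technical.

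RNA helicases use ATP to open short RNA duplexes and to strip proteins from RNA. DEAD box enzymes bind and pry apart duplexes locally, whereas DEAH box enzymes pull on a strand of RNA, and several of them are switched on by partner proteins with a G-patch motif. Most members belong to machinery that nearly every cell runs: ribosome assembly in the nucleolus, splicing, export of mRNA, translation and RNA decay. Cells that enlarge or divide need new ribosomes, and precursors of osteoclasts do both before they fuse.

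The main pattern was a peak at day 1. Of the 32 helicase genes, 22 (68.8%) were higher at day 1 than at day 0 and 1 (3.12%) was lower, while 9 did not pass the test (limma's moderated test, Benjamini-Hochberg adjusted p under 0.05). Over all genes tested, 24% were called higher and 21.9% lower. The median log2 change of the helicase genes was 0.42, against 0.03 for all genes. Most changes were small: the largest increase at day 1 was 2.07-fold, and the median standard error of a helicase gene was 0.10 on the log2 scale. The highest daily mean belonged to day 1 in 25 of the 32 genes, to day 3 in 4, to day 0 in 2 and to day 2 in 1. The array measures RNA from the whole culture, so fewer cells of a type and less RNA per cell cannot be told apart. By the F test over the 4 days together 23 of 32 helicase genes were called, a share near the 72.4% of all genes. Among these 23 the highest mean fell at day 1 in 20, against 27.3% of all genes called by that test.

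**Figure D1:**
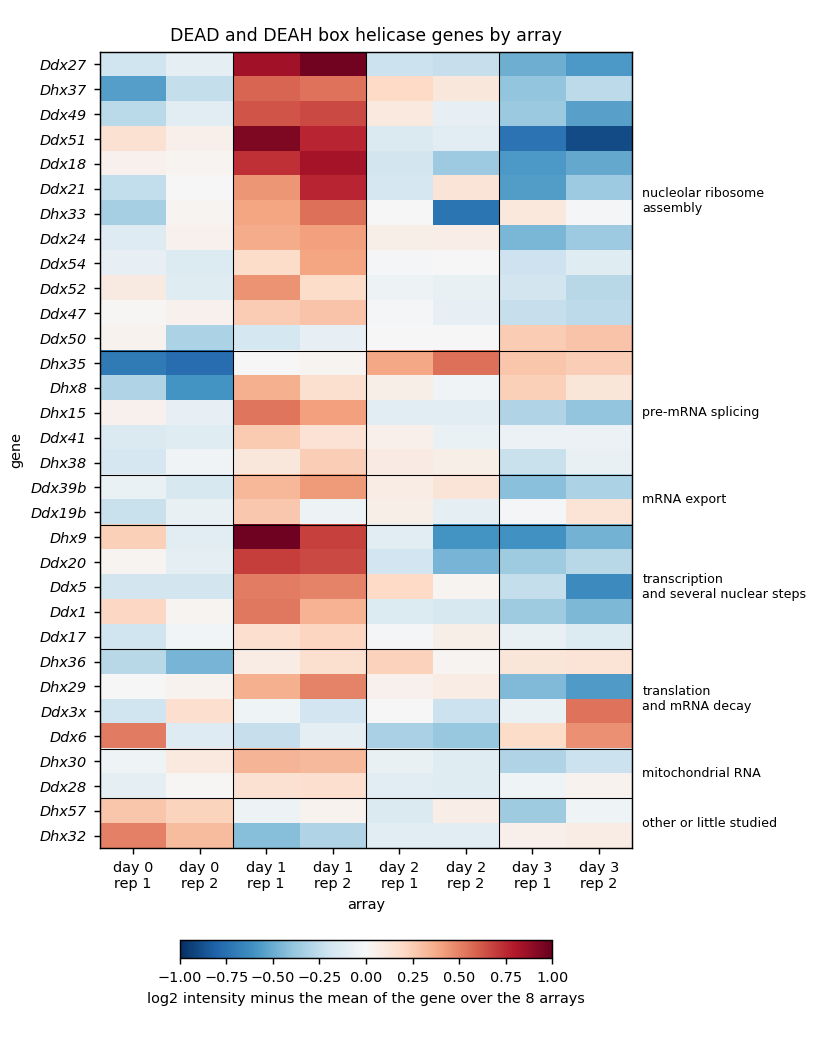
Log2 intensity of each helicase gene (rows, grouped by role) on each of the 8 arrays (columns, in order of days), minus the mean of that gene over the arrays. Red is above the mean and blue below it. Both day 1 columns are red for most rows. Rows that do not share this include Dhx32, Dhx57, Ddx50, Ddx6 and Ddx3x.

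The plot of all helicase genes by array shows both day 1 arrays apart from their neighbours. The pair of replicates differed little, with a median absolute difference of 0.11 and a largest of 0.73 (log2) for any helicase gene and day. The labelled cell type was checked with marker genes. The 4 macrophage markers on the array were detected on all arrays, and their summed raw signal lay between 26456 and 28176 on the day 3 arrays, against 45845 to 50831 on the day 0 arrays. The summed signal of 8 osteoclast markers lay between 2211 and 2284 before RANKL, between 25891 and 27334 on the day 1 arrays, between 70941 and 72124 on those of day 2 and between 78657 and 80637 on those of day 3. Of 9 neutrophil and granulocyte precursor markers, 8, 6, 1 and 1 were detected on both arrays of days 0, 1, 2 and 3, and their summed signal lay between 2700.5 and 2708 before RANKL, between 2341 and 2553 on the day 1 arrays and between 1544 and 1598 on those of day 3. For B lineage, T and NK, stromal, and erythroid markers, at most 2 of a list were detected on both arrays of any day. These lists moved with time in culture, and their part in the helicase results was not tested. No list had its highest single sum on a day 1 array, but for the stromal and osteoblast list both day 1 sums lay within the range of day 2. The stromal and osteoblast sum lay between 1299 and 1312 before RANKL and between 1494 and 1526 on the day 1 arrays. It lay between 1399 and 1545 on the day 2 arrays and between 1300 and 1350 on those of day 3. Of the 2 genes tested from this list, Dcn rose by 2.61 (log2, standard error 0.18) at day 1 over day 0. The other, Col1a1, gave -0.01 (standard error 0.13). Dcn had its highest daily mean at day 1 (7.45, against 7.22 at day 2), and at day 3 over day 2 it changed by -1.24.

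Promoters of the members were read beside this pattern, 250 bases before to 50 bases after each listed start (RefSeq, GRCm38.p6). Of the 32 genes, 30 matched, with 39 promoters, and Ddx6 and Dhx38 did not. Of the motifs searched on both strands, the E-box CACGTG, the site of MYC and related factors, lay in 3 of 39 promoters (7.69%), against 10.1% of 9173 promoters of tested genes and 7.15% of all 32851. The core CCGGAA, bound by ETS factors, lay in 19 of 39 (48.7%), against 27.1% of promoters of tested genes and 14.9% of all. Among the 27 promoters of the 22 genes higher at day 1, 17 (63.0%) held it. The 2 promoters of Ddx49 overlap and share 1 such core. Counted by gene, it lay in 17 of 30 helicase genes and in 15 of the 22, against 2269 of 7115 tested genes. The share among all genes called higher at day 1 was not counted. No E-box overlapped an ETS core in a helicase promoter, while a promoter of Ddx5 held ETS cores on both strands that overlap each other. These are counts of letters and not of bound sites, and nothing follows from them about either factor. The promoters below belong to the genes with the largest rise at day 1 (Ddx27 and Dhx37) and to the genes called higher than day 0 on each later day (Dhx35, Dhx36 and Dhx8). Each is written 5′ to 3′ on the strand of its gene, with capitals at the motifs. Ddx27 lies at chr2:167015063-167015362 on the plus strand, Dhx37 at chr5:125433999-125434298 on the minus strand, Dhx35 at chr2:158794557-158794856 on the plus strand, Dhx36 at chr3:62506939-62507238 on the minus strand and Dhx8 at chr11:101732706-101733005 on the plus strand.
Ddx27: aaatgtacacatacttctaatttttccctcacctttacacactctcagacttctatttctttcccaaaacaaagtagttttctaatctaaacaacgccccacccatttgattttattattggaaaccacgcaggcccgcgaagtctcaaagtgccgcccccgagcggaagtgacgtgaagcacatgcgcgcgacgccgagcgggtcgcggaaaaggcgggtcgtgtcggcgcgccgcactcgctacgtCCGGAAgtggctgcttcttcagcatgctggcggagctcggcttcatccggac
Dhx37: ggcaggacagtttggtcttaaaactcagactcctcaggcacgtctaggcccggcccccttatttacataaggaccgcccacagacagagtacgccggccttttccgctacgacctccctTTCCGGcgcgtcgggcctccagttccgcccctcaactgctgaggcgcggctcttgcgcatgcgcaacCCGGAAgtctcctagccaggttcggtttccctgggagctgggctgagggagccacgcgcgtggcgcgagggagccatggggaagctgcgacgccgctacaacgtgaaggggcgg
Dhx35: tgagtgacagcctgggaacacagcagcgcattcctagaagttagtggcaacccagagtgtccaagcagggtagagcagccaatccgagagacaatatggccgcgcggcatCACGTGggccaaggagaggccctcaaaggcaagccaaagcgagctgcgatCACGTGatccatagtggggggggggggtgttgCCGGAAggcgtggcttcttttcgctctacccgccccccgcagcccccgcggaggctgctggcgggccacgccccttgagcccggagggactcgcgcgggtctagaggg
Dhx36: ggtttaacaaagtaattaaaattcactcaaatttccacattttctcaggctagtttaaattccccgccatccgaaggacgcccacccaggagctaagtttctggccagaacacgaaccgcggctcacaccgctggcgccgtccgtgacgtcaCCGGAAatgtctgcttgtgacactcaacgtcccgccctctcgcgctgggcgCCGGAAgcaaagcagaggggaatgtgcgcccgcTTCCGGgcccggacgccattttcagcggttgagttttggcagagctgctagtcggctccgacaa
Dhx8: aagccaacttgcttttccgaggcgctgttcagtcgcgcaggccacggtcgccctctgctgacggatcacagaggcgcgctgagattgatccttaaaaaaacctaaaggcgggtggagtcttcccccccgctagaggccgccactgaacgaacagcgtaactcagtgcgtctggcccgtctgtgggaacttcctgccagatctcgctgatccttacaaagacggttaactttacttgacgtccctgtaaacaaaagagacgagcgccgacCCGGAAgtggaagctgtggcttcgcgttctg
In Ddx27 the ETS core begins at position -2. Counted from the listed start, Dhx37 holds it at positions -131 and -64. Dhx35 is among the few with the E-box, at positions -140 and -90, beside an ETS core at -58. Dhx36 holds 3 ETS cores, at -98, -47 and -14, and Dhx8 holds 1 at position 19, past the start.

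Helicases of ribosome assembly made up the largest group and included the 3 largest increases at day 1. Of 12 such genes, 9 were higher at day 1 than at day 0 (median log2 change 0.68) and the other 3 did not pass. Ddx27, whose printed promoter holds an ETS core at the start, works with the PeBoW complex on the RNA of the large ribosomal subunit. It measured 10.59 and 10.70 (log2 intensity) at day 0, 11.63 and 11.76 at day 1, 10.58 and 10.56 at day 2 and 10.30 and 10.22 at day 3. Both day 1 arrays stood well above every other array, and both day 3 arrays were below those of day 0. The change was 1.05 ± 0.09 at day 1 over day 0 (2.07-fold, limma adjusted p = 0.000162; ± is the standard error, with 2 arrays per day throughout). It fell by 1.13 ± 0.09 at day 2 over day 1 (0.458-fold, limma adjusted p = 0.000123).

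Dhx37, a DEAH box enzyme that frees a small nucleolar RNA from the precursor of the small subunit, measured 7.73 and 8.04 at day 0, 8.86 and 8.82 at day 1, 8.47 and 8.39 at day 2 and 7.88 and 8.02 at day 3. Days 1 and 2 lay above day 0 with no overlap, while the day 3 arrays lay between those of day 0. It was higher by 0.96 ± 0.12 at day 1 (1.94-fold, limma adjusted p = 0.000847) and by 0.55 ± 0.12 at day 2 (limma adjusted p = 0.00793), both over day 0. Ddx49, whose yeast counterpart acts on the small subunit, measured 7.90 and 8.05 at day 0, 8.79 and 8.83 at day 1, 8.26 and 8.09 at day 2 and 7.79 and 7.62 at day 3. The day 1 arrays were again the highest, and the rise over day 0 was 0.83 ± 0.11 (limma adjusted p = 0.000971).

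Ddx51, which releases a small nucleolar RNA from the precursor of the large subunit, had the deepest late decrease of the family. It measured 9.68 and 9.58 at day 0, 10.46 and 10.29 at day 1, 9.38 and 9.41 at day 2 and 8.79 and 8.63 at day 3. The 4 days did not overlap, with day 1 on top and day 3 at the bottom. At day 1 it was higher than at day 0 by 0.75 ± 0.10 (limma adjusted p = 0.0012), and at day 3 it was lower than at day 0 by a change of -0.92 ± 0.10 (0.529-fold, limma adjusted p = 0.000246). Ddx18, whose yeast counterpart serves both subunits, measured 11.28 and 11.27 at day 0, 11.96 and 12.07 at day 1, 11.06 and 10.87 at day 2 and 10.66 and 10.72 at day 3. It too was above day 0 at day 1 (0.74 ± 0.10, limma adjusted p = 0.000893) and below it at day 3 (-0.58 ± 0.10, limma adjusted p = 0.00168), with no overlap on either side.

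Of the other ribosome assembly helicases, Ddx21, which also supports transcription of ribosomal RNA genes, rose by 0.72 ± 0.16 at day 1, and Ddx24, Ddx54 and Ddx47 by 0.44, 0.40 and 0.24. The call of Ddx47 was lost in each of the 8 fits without 1 array. Dhx33 (0.63 ± 0.24, limma adjusted p = 0.0721) and Ddx52 (0.33 ± 0.12, limma adjusted p = 0.0649) did not pass at day 1. Ddx50 is the close paralogue of Ddx21, yet its values took another course. It measured 8.92 and 8.57 at day 0, 8.71 and 8.80 at day 1, 8.89 and 8.88 at day 2 and 9.14 and 9.17 at day 3. The day 1 and day 2 arrays lay between those of day 0, and day 3 was the highest (0.41 ± 0.12 over day 0, limma adjusted p = 0.0267).

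**Figure D2:**
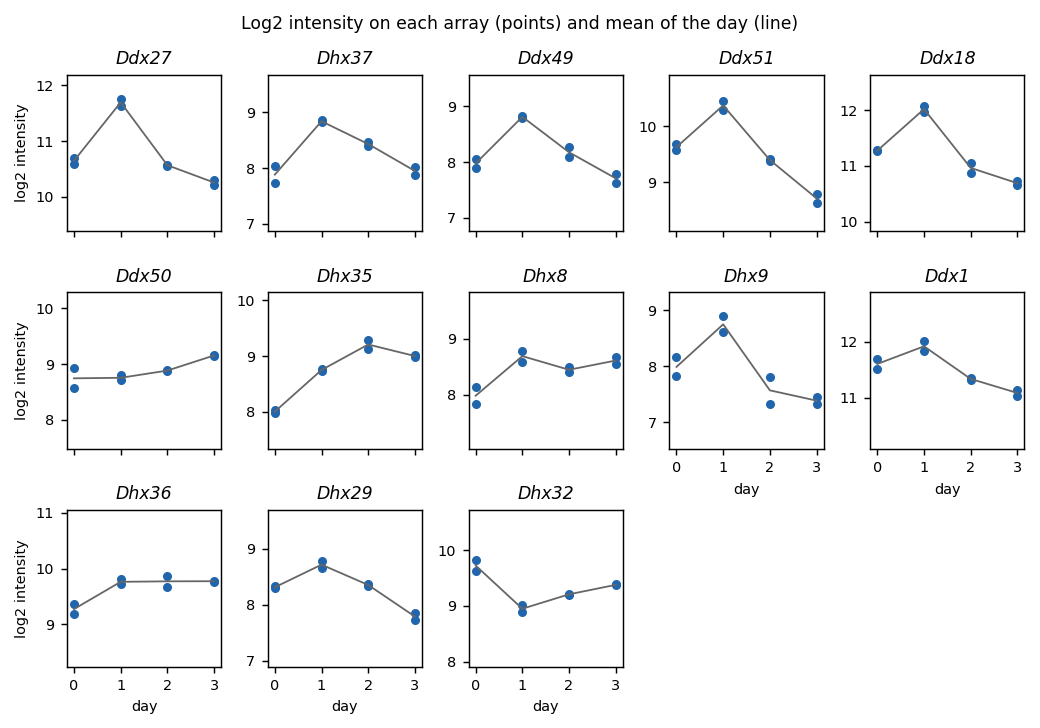
Log2 intensity of 13 helicase genes, those with the largest called changes in each direction of each comparison, by day from 0 to 3, with points for the 2 arrays of a day and a line through the daily means. Each panel spans the same range of log2 units. Ddx27, Dhx37, Ddx49, Ddx51, Ddx18 and Dhx9 are highest at day 1, Dhx35 at day 2, Ddx50 at day 3, and Dhx32 is highest at day 0.

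Splicing helicases were divided by the end of the course. At day 1 over day 0, 4 of 5 were higher (median 0.49) and Dhx38, which acts before the joining of exons, did not pass (0.28 ± 0.10, limma adjusted p = 0.0536). Dhx35, a protein of the catalytically active spliceosome whose printed promoter holds the E-box, showed the largest increases over day 0 at days 2 and 3 of all helicase genes. It measured 8.03 and 7.98 at day 0, 8.73 and 8.76 at day 1, 9.12 and 9.29 at day 2 and 9.02 and 8.98 at day 3. All 6 arrays with RANKL lay above both day 0 arrays, and day 2 was the highest. Relative to day 0 the changes were 0.75 ± 0.09 on day 1 (limma adjusted p = 0.000637), 1.20 ± 0.09 at day 2 (2.3-fold, limma adjusted p = 4.1e-05) and 1.00 ± 0.09 at day 3 (1.99-fold, limma adjusted p = 8.08e-05). Its other detected probe gave 0.35 for day 1, which did not pass, and passed with 1.11 for day 2 and 0.77 for day 3.

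Dhx8, which releases finished mRNA from the spliceosome, measured 8.13 and 7.83 at day 0, 8.79 and 8.59 at day 1, 8.49 and 8.40 at day 2 and 8.67 and 8.55 at day 3. All later arrays were above both day 0 arrays, and the change at day 3 over day 0 was 0.63 ± 0.13 (limma adjusted p = 0.00488). Dhx15 takes spent spliceosomes apart and also works on ribosome precursors. It rose by 0.49 ± 0.09 at day 1 and fell below day 0 at day 3 (-0.33 ± 0.09, limma adjusted p = 0.0195). The other detected probe of Dhx15 gave 0.34 ± 0.31 at day 1 and -0.32 ± 0.31 at day 3, neither of which passed. Ddx41, a spliceosome protein that is also described as a sensor of DNA in myeloid cells, rose by 0.34 ± 0.09 at day 1, and its values at days 2 and 3 over day 0 did not pass (0.12 and 0.07).

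All 5 helicases of transcription and several nuclear steps were higher at day 1 than at day 0, by 0.31 to 0.76. Dhx9, which links coactivators to RNA polymerase and unwinds both RNA and DNA, measured 8.16 and 7.82 at day 0, 8.89 and 8.61 at day 1, 7.81 and 7.32 at day 2 and 7.32 and 7.45 at day 3. The day 1 arrays were above all others, and its replicates were farther apart than those of most helicase genes. It was higher by 0.76 ± 0.20 at day 1 over day 0 (limma adjusted p = 0.0189) and then had the largest decrease between neighbouring days, -1.18 ± 0.20 at day 2 over day 1 (0.441-fold, limma adjusted p = 0.00279). Ddx20, known as Gemin3, a part of the SMN complex that builds spliceosomal particles, rose by 0.71 ± 0.11 at day 1 and fell by 1.00 ± 0.11 at day 2 over day 1.

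Ddx5 and Ddx17 are paralogues that act as transcription coregulators and in microRNA processing. At day 1 over day 0 Ddx5 rose by 0.68 ± 0.14 (limma adjusted p = 0.00715) and Ddx17 by 0.31 ± 0.09 (limma adjusted p = 0.0332), the call of Ddx17 being lost in 5 of 8 fits without 1 array. Ddx1, a subunit of the complex that ligates spliced transfer RNAs, measured 11.69 and 11.51 at day 0, 12.01 and 11.83 at day 1, 11.35 and 11.32 at day 2 and 11.13 and 11.04 at day 3. The days did not overlap, with day 1 on top. The rise at day 1 (0.32 ± 0.10, limma adjusted p = 0.0462) was lost in 7 of 8 fits without 1 array. Its level at day 3 was lower than at day 0 by a change of -0.52 ± 0.10 (limma adjusted p = 0.00454), which was kept in all 8 such fits. The other detected probe of Ddx1 gave 0.24 ± 0.11 at day 1, which did not pass, and passed with -0.48 ± 0.11 at day 3. These verdicts come from a separate fit of all detected probes. In that fit the probe used did not pass at day 1 either (limma adjusted p = 0.0544).

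In the cytoplasm, Dhx36, which unfolds G-quadruplexes in RNA and DNA, measured 9.37 and 9.18 at day 0, 9.72 and 9.81 at day 1, 9.87 and 9.67 at day 2 and 9.77 and 9.78 at day 3. Its 3 later days overlapped each other and all lay above day 0, by 0.49, 0.50 and 0.50 (limma adjusted p = 0.0102, 0.00755 and 0.00655). Dhx29, which helps the ribosome scan through structured leader sequences, measured 8.30 and 8.33 at day 0, 8.65 and 8.79 at day 1, 8.34 and 8.37 at day 2 and 7.85 and 7.72 at day 3. Day 1 was its highest and day 3 its lowest, with a rise of 0.40 ± 0.09 at day 1 and a change of -0.52 ± 0.09 at day 3, both over day 0 (limma adjusted p = 0.0106 and 0.00225). Ddx3x, a factor of translation initiation, and Ddx6, the P body helicase that represses and decays mRNA, did not pass in any comparison, with standard errors of 0.22 and 0.21. At day 1 over day 0 they gave -0.10 and -0.35.

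Among the remaining groups, Ddx39b, the export and splicing helicase also known as UAP56, rose by 0.49 ± 0.09 at day 1, and Ddx19b, which acts at the nuclear pore, gave 0.26 ± 0.14 (limma adjusted p = 0.167). Of the mitochondrial helicases, both tied to assembly of the mitochondrial ribosome, Dhx30 rose by 0.31 ± 0.09 and Ddx28 gave 0.20 ± 0.08 (limma adjusted p = 0.093). Dhx32 was the helicase gene that went the other way. It measured 9.82 and 9.63 at day 0, 8.89 and 9.01 at day 1, 9.20 and 9.21 at day 2 and 9.37 and 9.39 at day 3. All later arrays were below day 0, the day 1 arrays most of all, with a change of -0.77 ± 0.10 at day 1 over day 0 (0.585-fold, limma adjusted p = 0.000796). Dhx57 gave -0.26 ± 0.13 at day 1 (limma adjusted p = 0.146) and was lower at day 3 (-0.45 ± 0.13, limma adjusted p = 0.0213).

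**Figure D3:**
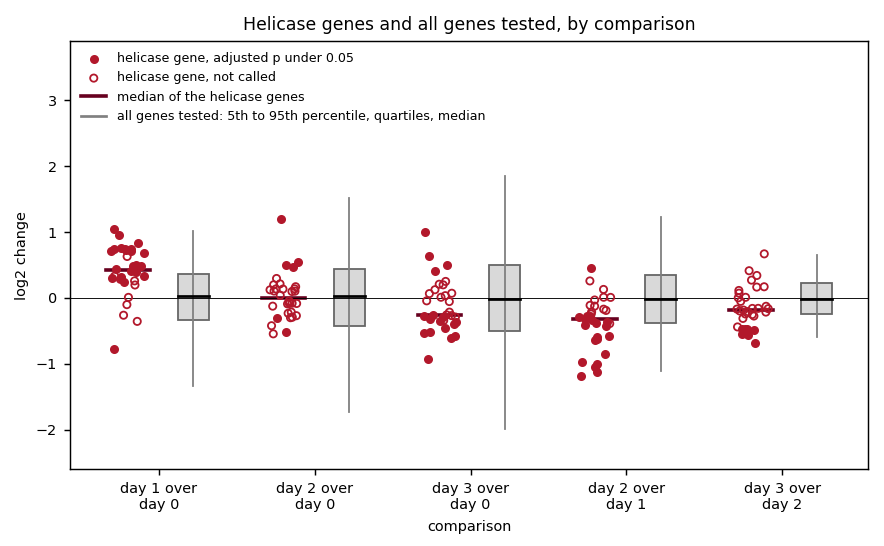
Log2 change of each of the 32 helicase genes (points, filled where the adjusted p was under 0.05, with their median as a dark line) in 5 comparisons of days, beside all 8663 genes tested (box for the quartiles with the median, line from the 5th to the 95th percentile). The helicase median is 0.42 at day 1 over day 0, -0.32 at day 2 over day 1 and -0.26 at day 3 over day 0.

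The peak was followed by a decrease within a day. At day 2 over day 1, 19 of 32 helicase genes (59.4%) were lower, 1 was higher and 12 did not pass, while 25% of all genes were called lower and 23.3% higher. The median was -0.32 for the helicase genes and -0.02 for all genes. Of the 12 ribosome assembly helicases, 11 were lower, and Ddx50 (0.13 ± 0.12) was the member that did not pass. Dhx35 was the gene that rose (0.46 ± 0.09, limma adjusted p = 0.00539), and its call was lost with median scaling between arrays. This comparison uses the same day 1 arrays as that of day 1 over day 0, so the 2 counts are not independent. The count of lower genes was 12 and 10 without day 1 replicates 1 and 2 (37.5% and 31.2%, against 19.3% and 19.0% of all genes). It was 11 and 10 without day 2 replicates 1 and 2 (34.4% and 31.2%, against 19.7% and 19.3% of all genes).

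By day 2 most helicase genes did not pass against day 0. The values that did not pass lay on both sides, from -0.54 (Ddx6) to 0.30 (Ddx5). Over day 0, 4 of 32 were higher, 2 were lower and 26 did not pass, against 27.8% of all genes higher and 26.6% lower, and the median was 0.00 for the helicase genes and 0.02 for all genes. The higher genes were Dhx35, Dhx37, Dhx36 and Dhx8 (0.46 ± 0.13, limma adjusted p = 0.0205). The lower ones were Dhx32 (-0.52 ± 0.10, limma adjusted p = 0.00375) and Ddx18 (-0.31 ± 0.10, limma adjusted p = 0.0308). All 4 that were higher carry a DEAH box name, as do 12 of the 32 members. Genes with such a name went both ways: Dhx32 was lower, and Dhx9 (-0.42) and Dhx57 (-0.29) were below day 0 without passing.

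At day 3 more helicase genes were called below day 0 than above it. Over day 0, 13 of 32 helicase genes (40.6%) were lower, 4 (12.5%) were higher and 15 did not pass, while 29.8% of all genes were called lower and 29.2% higher. The medians were -0.26 for the helicase genes and -0.01 for all genes. The lowest daily mean fell at day 3 in 18 of the 32, a count that was not made over all genes. Ddx51, Dhx9 (-0.60 ± 0.20, limma adjusted p = 0.035), Ddx18, Dhx29 and Ddx1 had the largest decreases. Ddx27 (-0.39 ± 0.09) and Ddx24 (-0.36 ± 0.09) were lower as well. The 4 higher genes were Dhx35, Dhx8, Dhx36 and Ddx50, of which Dhx35 kept its call with median scaling and the other 3 did not. The count of lower genes was 7 and 8 without day 0 replicates 1 and 2 (21.9% and 25%), against 27.2% and 27.1% of all genes in the same fits. It was 7 without either day 3 array (21.9%), against 26.8% and 26.4% of all genes without replicates 1 and 2. The share of lower helicase genes was thus not above that of all genes in these 4 fits, and the call of Ddx39b (-0.26 ± 0.09) was lost in each of the 8 fits without 1 array.

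The last day brought a further decrease in some genes. At day 3 over day 2, 7 of 32 helicase genes (21.9%) were lower, against 11.3% of all genes: Ddx51, Dhx29, Ddx5, Dhx37, Ddx39b, Ddx24 and Ddx49. Ddx51 changed by -0.69 ± 0.10 (limma adjusted p = 0.00735) and Dhx29 by -0.57 ± 0.09 (limma adjusted p = 0.00899). By limma, 0 of 32 were higher, against 10.6% of all genes, and at an unadjusted p under 0.05 the count was 1. All 7 were also higher at day 1 than at day 0. The 2 comparisons take their means from different arrays but share each gene's variance, fitted over all 8 arrays, so the lists are not independent. They are 7 of 7 of the later list and 7 of 22 of the earlier one. Over all genes, 514 genes lay on both lists, which is 52.6% of the 977 that were lower at day 3 over day 2 and 24.7% of the 2081 that were higher at day 1. The count of lower helicase genes was sensitive to single arrays. Without either day 2 array it was 1 (3.12%), near the 2.69% and 3.75% of all genes without replicates 1 and 2. It was 4 without either day 1 array (12.5%, against 7.8% and 7.84% of all genes) and 4 and 2 without day 3 replicates 1 and 2 (12.5% and 6.25%, against 6.34% and 4.41% of all genes).

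The split of all calls depends on the scaling between arrays. With quantile normalization 52.3% of called genes were higher at day 1 over day 0, and with median scaling 62.3% were. The share of higher calls was 48.3% with quantile normalization and 36.5% with median scaling at day 2 over day 1, and 48.4% and 31.0% at day 3 over day 2. Median scaling placed the median of all genes at 0.12, -0.13 and -0.09 in these comparisons, and that of the helicase genes at 0.53, -0.46 and -0.27. The helicase median therefore lay above that of all genes at day 1 over day 0 and below it in the other 2 comparisons under both scalings.

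Partners of the helicases were read from lists, beside the 24% of all genes called higher and 21.9% called lower at day 1. Of 27 ribosome assembly partners tested, 22 were higher at day 1 over day 0 (median 0.84) and 5 did not pass. At day 2 over day 1, 22 of the 27 were lower, against 25% of all genes. Nop2, a methyltransferase of ribosomal RNA, rose by 1.35 ± 0.10, Bop1, a subunit of the PeBoW complex, by 1.24 ± 0.18, and Noc3l, a factor of the large subunit, by 1.23 ± 0.15. At day 3 over day 0, 17 of the 27 were lower and 2 higher, against 29.8% and 29.2% of all genes. Of 7 SMN complex genes, which partner Ddx20, 5 rose at day 1 and 1 fell, led by Gemin4 (1.02 ± 0.08), Gemin5 (1.00 ± 0.23) and Gemin6 (0.74 ± 0.10).

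Of 22 other spliceosome genes, 13 were higher and 1 was lower at day 1 over day 0 (median 0.34). Prpf31, a protein of the tri-snRNP, rose by 1.24 ± 0.16, and Sf3b4 and Sf3b3, subunits of a complex that recognises the branch point, by 0.81 and 0.73. Of 9 export partners, 7 were higher, among them Thoc1 (0.57 ± 0.08) and Thoc3 (0.48 ± 0.16) of the THO complex and the export receptor gene Nxf1 (0.47 ± 0.13). Of 9 decay partners of DDX6, 3 were higher and 1 lower, against 24% and 21.9% of all genes. Cnot3 rose by 0.54 ± 0.09, Eif4enif1 by 0.35 ± 0.12 and Lsm14a changed by -0.38 ± 0.11.

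Of 15 G-patch genes tested, listed as possible partners of DEAH box enzymes, 4 were higher at day 1 over day 0, a share near the 24% of all genes. At day 3 over day 0 6 were lower and 2 higher, against 29.8% and 29.2% of all genes. At day 3 Pinx1 changed by -0.95 ± 0.18, Gpatch2 by 0.93 ± 0.09 and Rbm10 by -0.78 ± 0.17. Of 10 RNA helicases with other names, 4 were higher and 1 was lower at day 1. Mov10, a helicase linked to silencing and antiviral defence, changed by -1.47 ± 0.11 (limma adjusted p = 8.504e-05), the mitochondrial helicase gene Supv3l1 rose by 0.87 ± 0.09 and Eif4a3, of the exon junction complex, by 0.52 ± 0.10.

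**Figure D4:**
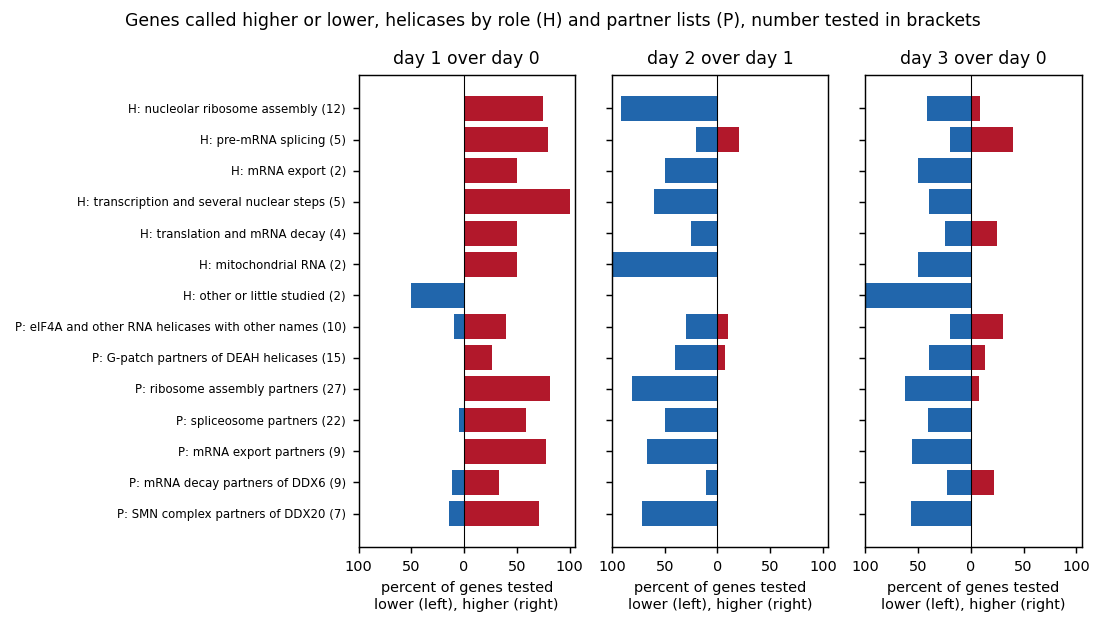
Percent of genes tested that were called lower (blue, to the left of 0) or higher (red, to the right of 0) in 3 comparisons of days, for the helicase genes by role (H) and for lists of their partners (P), with the number tested in brackets. At day 1 over day 0 most bars run to the right and at day 2 over day 1 most run to the left. Groups of 2 genes can take few values.

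Detection did not depend closely on its threshold. All 32 members were detected on all 8 arrays, and the 8 genes left out (Ddx4, Ddx25, Ddx39a, Ddx42, Ddx56, Ddx59, Dhx16 and Dhx40) had no probe detected on any array. The dimmest member, Ddx19b, had a mean raw signal of 201, while the brightest probe of the 8 left out, one of Ddx4, a germline helicase, had 166. Ddx19b and Ddx3x (212) lay closest to background, where array values are compressed. Of the members, 8 had more than 1 detected probe. The other probes of Ddx39b gave 0.97 and 0.60 at day 1 over day 0, on the same side as the probe used. For Ddx24 another probe gave 0.37 ± 0.09 at day 1 over day 0 and passed, while the probe with the lowest signal gave -0.13 ± 0.23, which did not pass. For Ddx47 the other probes gave 0.44 ± 0.13, which passed, and 0.42 ± 0.19, which did not. In the same fit of all detected probes the Ddx47 probe used did not pass at day 1 (limma adjusted p = 0.0557). For Ddx50 the other probes, both near background, differed. The probe detected on 4 arrays gave -0.04 ± 0.09 at day 1 and 0.34 ± 0.09 at day 3, which passed at day 3 as did the probe used. The probe detected on all arrays gave 0.50 ± 0.18 at day 1 and 0.09 ± 0.18 at day 3, neither of which passed. Probe sequences were not compared here, so signal from near-identical copies such as Ddx39a or Ddx19a cannot be told apart from that of the named gene.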

How the data were processed

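The 8 RNA samples were measured on MouseRef-8 v2.0 bead arrays. The authors deposited, per the file headers, 1 raw intensity per probe and array with a detection p-value beside it. From the values, the signals are linear and unnormalized. Their processed intensity values, also deposited and linear, lay 76.0 to 86.3 below the signal in the median, had no value for 56 probes and served as an alternative. What the authors subtracted was not given in the sources used here.

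Of 25697 probes 23978 carried a gene symbol from the platform annotation. By Entrez number 23962 matched the RefSeq table (GRCm38.p6), which changed 0 symbols. Signals were processed with neqc of limma 3.58.1 in R 4.3.3 (normexp correction from the detection p-values, offset 16, quantile normalization, log2). A gene was kept where 2 or more arrays gave a detection p under 0.05, with 1 probe per gene. The linear model (lmFit, eBayes) had a mean for each of 4 days over the 8 arrays, which leaves 4 residual degrees of freedom. Benjamini-Hochberg adjustment ran over 8663 genes in each comparison. The other probes of a gene were judged in a separate fit of all 11946 detected probes with a symbol, adjusted over those probes. Precision is limited by the number of arrays, and the median standard error of a gene was 0.12. Per array 11281 to 11361 probes were detected, at a mean signal of 720 to 841, and arrays of a day correlated at 0.994 to 0.996 across genes.

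The helicase genes, role groups, partner lists and tests were chosen with earlier results of these data known. Named helicase genes were the called members with the 5 largest changes in each direction over day 0 and the 2 largest between neighbouring days. Other members were given by role with up to 4 examples, and each partner list by its counts and its 3 largest called changes at the comparison with most calls. Alternatives covered background correction, offset, scaling, filter, probe choice, the replicate number as a block, the authors' values, fits of only the days compared, and leaving out each array. The BeadChip as a block was not run, since the sources used here do not name the chip of an array. The fit was tested on simulated data.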

Additional observations from a re-analysis of the deposited data

How the results depend on the processing

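Of 160 helicase values (32 genes in 5 comparisons), 137 to 152 kept their direction and their side of the threshold under each of 10 other settings, and 136 to 143 in each of the 8 fits without 1 array; 0 reversed. Calls that were kept under all 18 numbered 11 of 23 at day 1 over day 0, 4 of 6 at day 2 over day 0, 6 of 17 at day 3 over day 0, 8 of 20 at day 2 over day 1 and 1 of 7 at day 3 over day 2. The count of genes higher at day 1 over day 0 (22) was 17 to 26 under the other settings and 15 to 20 without 1 array, and the count called by the F test (23) was 22 to 30 and 21 to 24. Without 1 array, 1 to 2 genes were lower at day 1 over day 0. At day 2 over day 0 the count of lower genes (2) was 6 with the authors' values, 7 with cyclic loess, 7 without background correction, 5 with an offset of 50, 5 among genes detected on all 8 arrays, 1 without a detection filter, 1 with only the 2 days fitted, and 1 to 5 without 1 array. At day 3 over day 0 the count of higher genes (4) was 1 with median scaling, and that of lower genes (13) was 7 with only the 2 days fitted and 7 to 13 without 1 array. At day 2 over day 1 the count of higher genes (1) was 2 without background correction, 2 among genes detected on all 8 arrays, 0 with median scaling and 1 to 2 without 1 array, and that of lower genes (19) was 10 to 18 without 1 array. At day 3 over day 2 the count of higher genes (0) was 1 with the authors' values, 1 without background correction, 1 with an offset of 50, 1 among genes detected on all 8 arrays, 1 with only the 2 days fitted and 0 to 1 without 1 array. The count of lower genes there (7) was 13 without background correction, 4 without a detection filter, 4 with only the 2 days fitted and 1 to 6 without 1 array. Fits of only the 2 days compared and fits without 1 array use fewer arrays, and the cause of the other shifts was not tested. With the replicate number as a block, 23 genes were higher at day 1 over day 0 and 22 were called by the F test. The differences between replicates of different days correlated at -0.081 to 0.067 over 6 pairs of days, so no replicate effect common to the days was seen. Whether arrays of the same replicate number share an origin cannot be told from this. Signal over background limits Ddx19b and Ddx3x.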
